A study of Mus musculus with 18 samples.

Results

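The aminoacyl-tRNA synthetases are the enzymes that attach each amino acid to its tRNA. The results below cover 38 genes of this machinery, picked by symbol from the 38924 genes of the tables: 22 that serve protein synthesis in the cytosol (19 synthetase genes and 3 scaffold genes) and 16 nuclear genes for mitochondrial synthetases. Gars, the gene altered in these mice, was kept out of both sets. Each symbol matched 1 gene, and all 38 passed the filter on low counts in every comparison.

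Mice of 8 weeks on the background B6;CASTxB6.129 were used, and each library was made from the spinal cord of 1 named mouse. Ribosome-associated mRNA was isolated by RiboTag, in which Cre recombinase switches a gene for the ribosomal protein Rpl22 to a form that carries a haemagglutinin (HA) tag, which is then used to precipitate the tagged ribosomes with anti-HA antibody. Every mouse carried 1 tagged allele (Rpl+/-). Cre came from the Chat locus (choline acetyltransferase), so the tag was set to appear in cholinergic neurons of all kinds, motor neurons among them. The 4 groups were Cre P278KY (Rpl+/-;Chat+/-;P278KY+/-, n = 3), Cre WT (Rpl+/-;Chat+/-;P278KY+/+, n = 4), and 2 control groups that lacked Cre and should yield background only, NoCre P278KY (Rpl+/-;Chat+/+;P278KY+/-, n = 6) and NoCre WT (Rpl+/-;Chat+/+;P278KY+/+, n = 5). P278KY is a dominant allele of Gars, which encodes glycyl-tRNA synthetase, and changes in this gene cause an inherited motor neuropathy. In whole-tissue pulldowns of this kind, fewer cells of a type and less RNA per cell cannot be told apart.

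The cytosol and the mitochondrion translate separately, and most amino acids have a synthetase gene for each compartment. Gars and Kars are exceptions, each giving both the cytosolic and the mitochondrial enzyme, and there is no mitochondrial glutaminyl-tRNA synthetase, since Ears2 charges that tRNA with glutamate, which an amidotransferase then converts. Several cytosolic synthetases are held with the scaffold proteins Aimp1, Aimp2 and Eef1e1 in the multi-synthetase complex, while the others are free. By the fold of their catalytic domain, synthetases belong to class I or class II. Cytosolic synthetase genes are among the known targets of ATF4, a transcription factor of the integrated stress response.

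The Cre P278KY libraries held 15461440 to 18944769 counts and the Cre WT libraries 14659488 to 24028649. Those of NoCre P278KY held 9876808 to 14450144, and those of NoCre WT 8177758 to 11480402. Mitochondrial ribosomal RNA took 1.36% to 4.88% of the counts in Cre libraries and 24.2% to 53.8% in NoCre libraries. Index sequences and sample numbers in the library descriptions start again after 10 libraries, and on that ground 10 libraries are called pool 1 and 8 are called pool 2. All Cre P278KY libraries and Cre WT 1 and 2 were in pool 1, and Cre WT 3 and 4 were in pool 2. Sex read from Xist and Y-linked transcripts was 1 male and 2 females in Cre P278KY, males only for Cre WT of pool 1 and females only for Cre WT of pool 2, and all NoCre mice were male in pool 1 and female in pool 2. Chat, which marks the cholinergic target cells, was at 105 ± 12.6 CPM (counts divided by the TMM-scaled library total, on the usual scale) for Cre P278KY (SD, n = 3) and 122 ± 44.0 for Cre WT (SD, n = 4), against 2.88 ± 0.616 for NoCre P278KY (SD, n = 6) and 7.90 ± 2.92 for NoCre WT (SD, n = 5). Rpl22 gave 34.7 ± 0.0757, 32.7 ± 9.76, 18.7 ± 3.49 and 23.6 ± 4.68 CPM in the same order. Gars itself gave 274, 250.3 and 296 CPM in the Cre P278KY libraries, against 168, 159, 124 and 105 for Cre WT, with no overlap (log2 fold change 1.01 ± 0.187 SE, adjusted p = 0.0219). These gene counts do not separate the P278KY transcript from the normal one, so they do not check the Gars labels.

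The promoters of the members are shown first because ATF4 binds, with a C/EBP partner, at sites with the letters TGATGNAA. The RefSeq promoter table (GRCm38.p6, 250 bases before to 50 after each start) holds a window for 29 of the 38 members, 15 cytosolic and 14 mitochondrial. These members have 31 windows, and for 26 of them bases just after the start were found in a transcript of the same gene. Searched on both strands, TGATGNAA was found in 4 of the 15 cytosolic and in 0 of the 14 mitochondrial members with a window, beside 4.51% of the 27025 genes in the table. All 4 hold the letters TGATGCAA, as do 1.03% of the genes, and Aars also holds TGATGAAA, beginning 9 bases after its start. The stretches with TGATGCAA are printed on the strand of the gene, with these letters in capitals (TTGCATCA is the same site read on the other strand).
Aars, alanyl-tRNA synthetase, chr8:111033684-111033783, plus strand, match beginning 112 bases before the start: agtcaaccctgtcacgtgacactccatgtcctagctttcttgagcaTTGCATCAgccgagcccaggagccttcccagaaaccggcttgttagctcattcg
Iars, isoleucyl-tRNA synthetase, chr13:49682126-49682155, plus strand, 7 bases after the start: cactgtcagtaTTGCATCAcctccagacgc
Tars, threonyl-tRNA synthetase, chr15:11399659-11399719, minus strand, 15 bases before the start: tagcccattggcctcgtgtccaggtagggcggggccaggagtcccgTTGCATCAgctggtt
Yars, tyrosyl-tRNA synthetase, chr4:129189895-129189924, plus strand, 3 bases after the start: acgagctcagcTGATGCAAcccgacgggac
A match of letters is a description and shows no binding. Of these 4 genes, Iars and Tars passed the test of the genotype difference described next, and Aars and Yars did not. Eprs passed as well, and its window does not hold the letters. The table has no window for Wars, Rars, Lars and Cars, which also passed, or for Nars, Hars and Vars, so these were not searched.

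Among the Cre libraries, a group of cytosolic synthetase mRNAs was higher in P278KY mice, and no mitochondrial one passed the test. Of the 22 cytosolic members, 7 rose (Wars, Rars, Iars, Lars, Cars, Tars and Eprs) and none fell at an adjusted p under 0.05, where 2.32% of the 14717 genes tested passed in either direction and 1.22% passed upwards and 1.11% downwards. Their median log2 fold change was 0.62, beside −0.01 over all genes tested, and 19 of 22 were above 0 (48.9% of all genes were). None of the 16 mitochondrial members passed by edgeR, DESeq2 or voom, none had an unadjusted p under 0.05 by edgeR (13 of the 22 cytosolic members and 2378 of the 14717 genes had), and their median was −0.05 (−0.03 without Lars2, a member described apart at the end). Groups did not overlap for 12 of the cytosolic members, each higher in P278KY (8.2% of all genes were so and 8.45% were lower), and overlapped for each mitochondrial member.

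**Figure D1:**
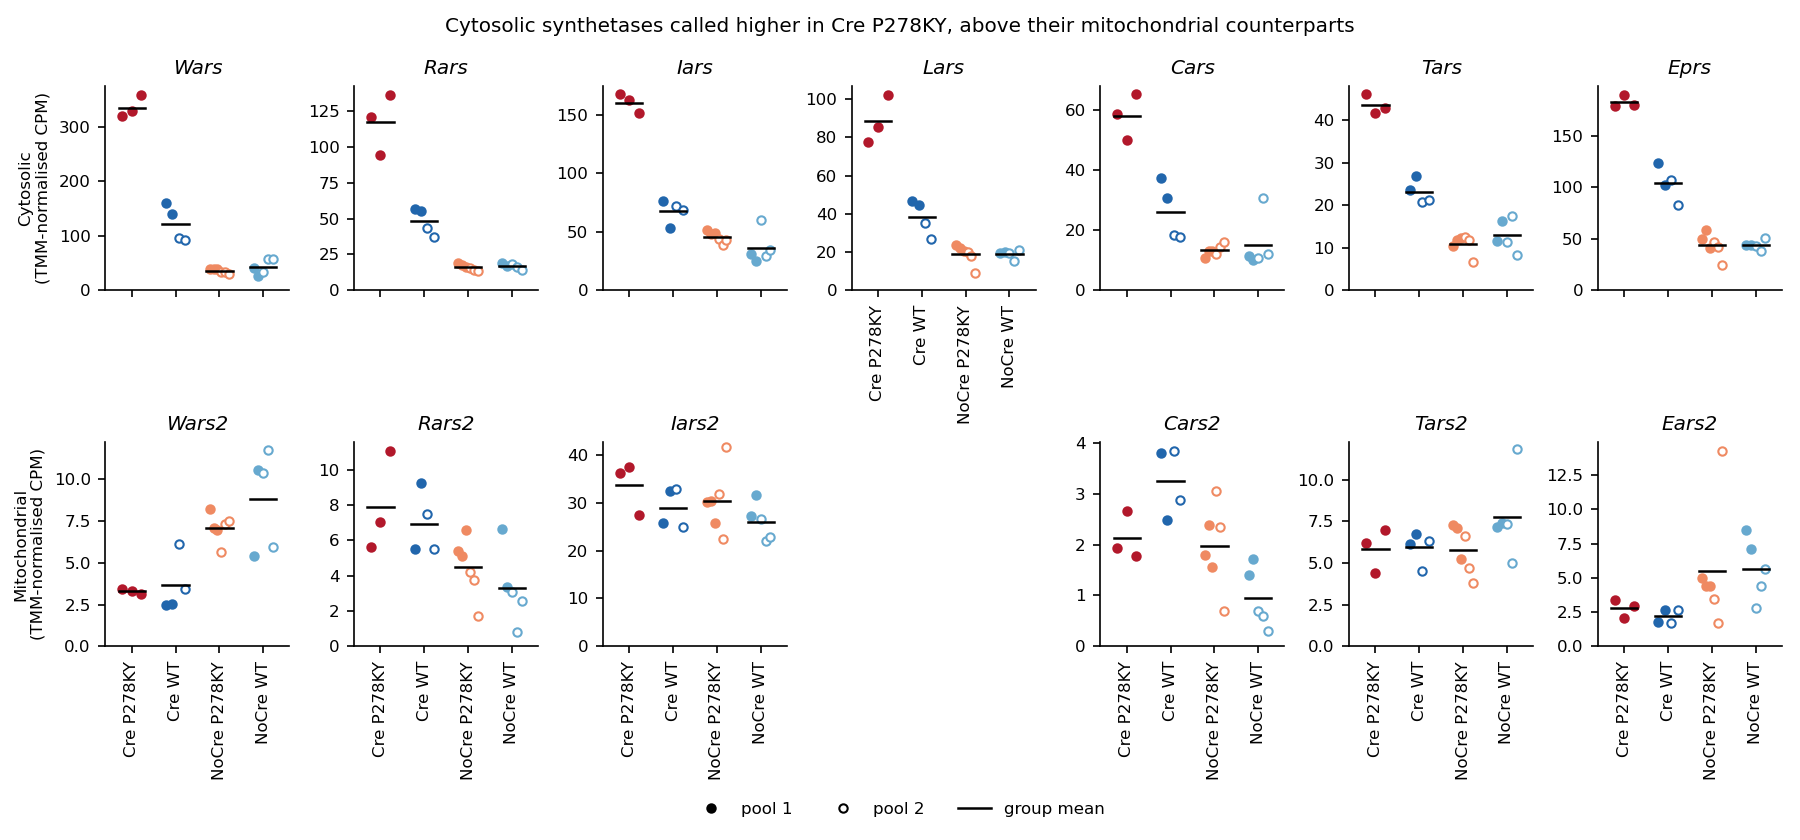
CPM (vertical axes, from 0) of the 7 cytosolic synthetases that rose in Cre P278KY (upper row) and of their mitochondrial counterparts (lower row, with Ears2 below Eprs, and Lars2 and Pars2 not drawn), with 1 point per library, filled for pool 1 and open for pool 2, and bars at the group means. In the upper row the 3 Cre P278KY points lie above the 4 Cre WT points, which does not hold in the lower row.

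Wars, tryptophanyl-tRNA synthetase (ENSMUSG00000021266, GRCm38 chromosome 12, 108860030 to 108894174), gave 318, 328 and 358 CPM in the Cre P278KY mice against 160, 140, 96.6 and 92.4 in the Cre WT mice. Its NoCre levels were 29.98 to 39.97 CPM in P278KY and 26.8 to 58.0 in WT. The lowest P278KY value lay above the highest WT value, and the log2 fold change was 1.49 ± 0.210 SE (adjusted p = 0.00539). Its mitochondrial counterpart Wars2 gave 3.46, 3.31 and 3.16 CPM in the Cre P278KY mice against 2.49, 2.56, 6.13 and 3.40 in the Cre WT mice (log2 fold change −0.13 ± 0.395 SE, adjusted p = 0.915).

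Rars, arginyl-tRNA synthetase of the multi-synthetase complex (ENSMUSG00000018848, chromosome 11, 35808381 to 35834506), gave 121, 94.5 and 136 CPM in the Cre P278KY mice against 56.9, 54.9, 43.4 and 37.4 in the Cre WT mice (log2 fold change 1.31 ± 0.198 SE, adjusted p = 0.00767). The lowest P278KY library was still above the highest WT library. In NoCre libraries Rars stayed between 13.4 and 19.2 CPM. Rars2 gave 5.64, 7.02 and 11.04 CPM against 5.48, 9.24, 7.497 and 5.51, with overlapping groups (0.22 ± 0.295 SE, adjusted p = 0.784).

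Iars, isoleucyl-tRNA synthetase of the same complex (ENSMUSG00000037851, chromosome 13, 49682100 to 49734267), gave 168, 163 and 151 CPM in the Cre P278KY mice against 76.4, 53.7, 72.2 and 69.1 in the Cre WT mice (log2 fold change 1.26 ± 0.190 SE, adjusted p = 0.00767). Unlike Wars, Rars and Lars, its WT libraries of pool 2 lay within the range of the pool 1 pair. Iars2, its mitochondrial counterpart, gave 36.2, 37.4 and 27.4 CPM against 25.8, 32.3, 32.9 and 24.8 (0.25 ± 0.195 SE, 95% interval −0.18 to 0.69, adjusted p = 0.583). This interval lies below the whole interval of Iars (0.84 to 1.69).

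Lars, the leucyl-tRNA synthetase that also takes part in leucine sensing upstream of mTORC1 (ENSMUSG00000024493), gave 77.4, 85.7 and 102 CPM in the Cre P278KY mice against 46.9, 44.9, 35.2 and 27.0 in the Cre WT mice (log2 fold change 1.23 ± 0.205 SE, adjusted p = 0.0126). Cars, cysteinyl-tRNA synthetase (ENSMUSG00000010755, chromosome 7, 143557230 to 143600090), gave 58.6, 50.0 and 65.2 CPM against 37.4, 30.7, 18.3 and 17.6 (1.19 ± 0.265 SE, adjusted p = 0.0482). Its WT libraries split by pool, the pool 2 pair being lower. Cars2 had the smallest p of the mitochondrial members and the opposite sign, with 1.94, 2.65 and 1.78 CPM against 3.798, 2.47, 3.84 and 2.88 (−0.59 ± 0.361 SE, adjusted p = 0.472).

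Tars, threonyl-tRNA synthetase (ENSMUSG00000022241, chromosome 15, 11382301 to 11399665), gave 46.1, 41.7 and 42.8 CPM in the Cre P278KY mice against 23.5, 26.9, 20.8 and 21.2 in the Cre WT mice (log2 fold change 0.95 ± 0.167 SE, adjusted p = 0.0170). Tars2 gave 6.21, 4.41 and 7.00 CPM against 6.16, 6.76, 4.54 and 6.33 (0.01 ± 0.279 SE). Eprs, a single protein that charges both glutamate and proline tRNA (ENSMUSG00000026615, chromosome 1, 185363044 to 185428360), gave 179, 190 and 180 CPM against 124, 102, 107 and 83.2 (0.85 ± 0.173 SE, adjusted p = 0.0354). The mitochondrion has a gene for each of these reactions. Ears2 gave 3.36, 2.04 and 2.95 CPM against 1.74, 2.64, 1.74 and 2.63 (0.37 ± 0.377 SE), and Pars2 gave 0.426, 0.938 and 1.23 against 0.498, 1.98, 1.80 and 1.25 (−0.66 ± 0.598 SE). Both pairs of groups overlapped.

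**Figure D2:**
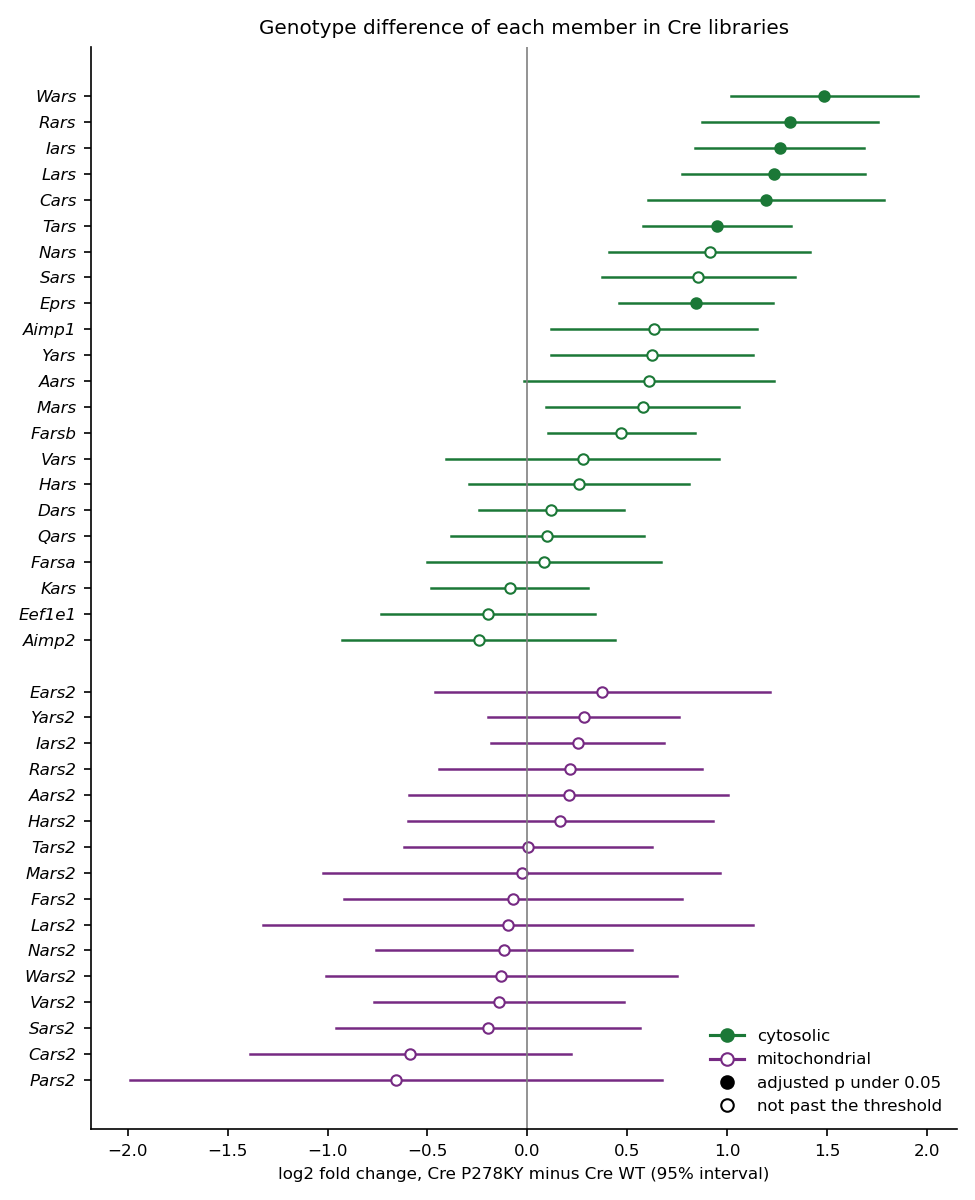
Log2 fold change of Cre P278KY over Cre WT (horizontal axis) for each of the 38 members, with its 95% interval from the edgeR fit, cytosolic in green and mitochondrial in purple, filled where the adjusted p was under 0.05. Most cytosolic intervals lie above 0 (13 of 22), and each of the 16 mitochondrial intervals includes 0.

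The other 15 cytosolic members did not pass. Nars (asparagine) and Sars (serine) came nearest, with log2 fold changes of 0.91 ± 0.226 SE (adjusted p = 0.0735) and 0.86 ± 0.217 SE (adjusted p = 0.0772) and no overlap between the groups. Mars, Farsb and Yars also had no overlap, with values of 0.58, 0.47 and 0.62 (adjusted p from 0.201 to 0.226). Values for Aimp1, Aars, Vars, Hars, Dars, Qars and Farsa ran from 0.08 to 0.63, with overlapping groups. Phenylalanyl-tRNA synthetase is built from Farsa and Farsb together, and their values were 0.08 ± 0.263 SE and 0.47 ± 0.166 SE. Kars, which makes the lysyl enzyme of both compartments from 1 gene, gave 42.4, 43.5 and 43.4 CPM in the Cre P278KY mice against 52.7, 55.1, 43.1 and 36.7 in the Cre WT mice (−0.09 ± 0.177 SE, 95% interval −0.48 to 0.30). Of the 3 scaffold genes none passed: Aimp1 was at 0.63, and Aimp2 and Eef1e1 were at −0.24 and −0.20.

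By structural group, 4 of the 8 synthetases of the multi-synthetase complex (median 0.71) and 3 of the 11 free cytosolic synthetases (median 0.62) rose. Class I enzymes accounted for 5 of 9 (median 1.19) and class II enzymes for 1 of 9 (median 0.47), with Eprs, which has a domain of each class, counted in neither. The difference between the classes was not tested.

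Mitochondrial members were measured less precisely, with standard errors of 0.195 to 0.598 (median 0.350) against 0.164 to 0.307 (median 0.217) for the cytosolic ones. For 13 of the 16 the upper bound of the interval was below a log2 fold change of 1, that is a 2-fold rise, and the exceptions were Aars2, Ears2 and Lars2. The interval left out a 2-fold change in both directions for only 9 of the 16. Yars2, the mitochondrial tyrosyl enzyme, gave 16.4, 13.5 and 11.5 CPM in Cre P278KY against 13.0, 11.5, 11.1 and 10.7 in Cre WT (0.28 ± 0.215 SE, interval −0.19 to 0.76). Taken pair by pair over both pools and leaving out Lars2, the cytosolic gene had the larger log2 fold change for 15 of 15 amino acid pairs, by a median of 0.94 (0.09 for Hars over Hars2 to 1.78 for Cars over Cars2). The pairs were not compared within pool 1 alone. Between the NoCre genotypes the cytosolic value was the larger for 6 of 15 pairs (median difference −0.09). The Eprs value enters for both Ears2 and Pars2, so those 2 pairs are not independent. Hars and Hars2 begin at overlapping positions on opposite strands, and whether reads were counted by strand is not given in the sources used here, so their counts could be mixed.

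Summed over the set, cytosolic members took 2969 to 3630 CPM in Cre P278KY, 2296 and 2295 in the pool 1 libraries of Cre WT, and 1526 and 1364 in those of pool 2. The summed mitochondrial members without Lars2 were at 98.2 to 110 CPM in Cre P278KY and 90.3 to 106 in Cre WT, with overlap. Glial markers moved with the pools too: the 8 oligodendrocyte markers summed to 754 and 1203 CPM in Cre WT of pool 1 and 3712 and 4151 in pool 2, against 709 to 1781 in Cre P278KY, and their part in the genotype difference was not tested. Within pool 1 alone, where the oligodendrocyte median was −0.07 (−1.58 over both pools), the cytosolic median was 0.36, and the 7 members called were the same 7 genes. Of all genes, 179 were called higher and 163 lower over both pools, and 634 higher and 709 lower of 14753 within pool 1. There Wars stood at 1.23 (adjusted p = 0.00394), Iars at 1.37 (0.00432), Rars at 1.14 (0.00897), Lars at 1.01 (0.0116), Tars at 0.87 (0.0223), Cars at 0.83 (0.0339) and Eprs at 0.77 (0.0354), by edgeR. In pool 1 the 2 WT mice were male and 2 of the 3 P278KY mice female, so that comparison is not balanced for sex.

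No marker of another cell type passed in the genotype difference, but several lists lay on 1 side. All 8 oligodendrocyte markers and all 6 skeletal muscle markers were below 0 (muscle median −2.55, summed 4.20 to 4.46 CPM in Cre P278KY and 10.9 to 56.1 in Cre WT, with Ckm at 0 in 1 Cre P278KY library, and median −2.89 in pool 1 alone, where 1 of the 6 passed). Astrocyte markers (6 of 7 below 0, median −1.36) summed to 531 to 978 CPM and 416 to 1372, and vascular markers (4 of 5 below 0, median −1.01) to 6.73 to 17.6 and 9.96 to 29.2. Microglial markers (4 of 7 below 0, median −0.02) summed to 26.9 to 42.1 and 23.2 to 36.0, and the 7 cholinergic markers (4 above 0, median 0.02) to 1419 to 1799 and 1364 to 2149. The part of these in the synthetase values was not tested.

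**Figure D3:**
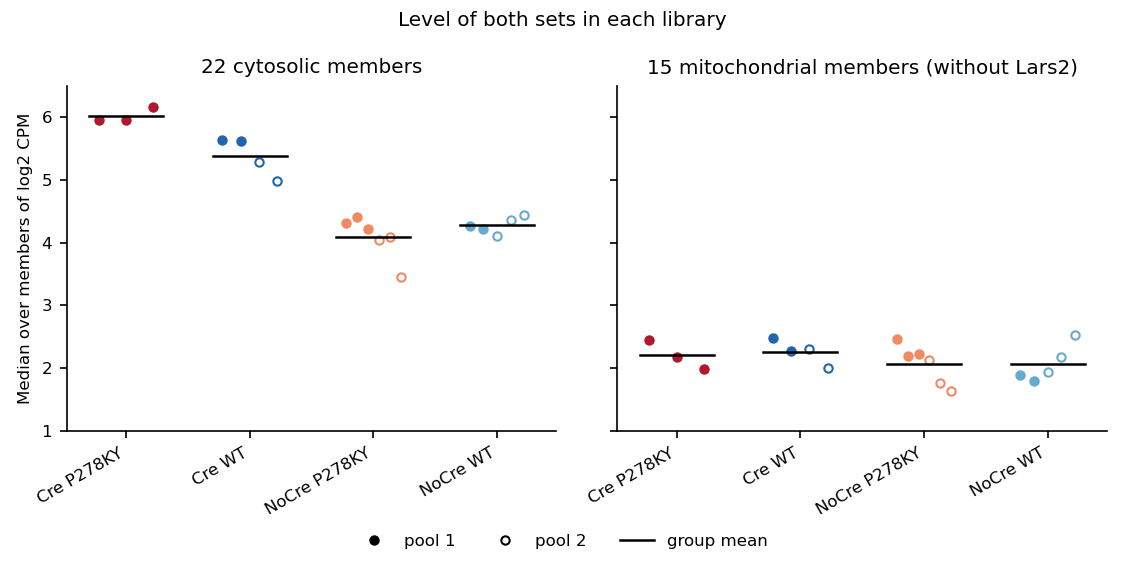
Median log2 CPM over the 22 cytosolic members (left) and over 15 mitochondrial members without Lars2 (right), 1 point per library, filled for pool 1 and open for pool 2, with bars at the group means. The cytosolic medians run from 5.96 to 6.17 in Cre P278KY, above Cre WT (4.98 to 5.64) and the NoCre groups, while the mitochondrial medians of the 4 groups overlap.

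Genes that work beside the synthetases were taken from lists for each compartment. Of 10 cytosolic partners 1 rose and none fell. This was Eef1a1, the elongation factor that carries charged tRNA to the ribosome, with 376, 335 and 379 CPM in the Cre P278KY mice against 153, 198, 167 and 215 in the Cre WT mice (log2 fold change 1.01 ± 0.186 SE, adjusted p = 0.0214). Its NoCre levels, 243 to 368 CPM, lay above those of Cre WT. Its neuronal form Eef1a2 was at −0.22 (adjusted p = 0.734), and Xpot, which exports tRNA from the nucleus, was at 0.90 (adjusted p = 0.132, and 1.34 with adjusted p = 0.00688 in pool 1 alone). Of the mitochondrial partners, neither the amidotransferase genes Qrsl1, Gatb and Gatc, nor Mtfmt, which formylates the initiator tRNA, nor the translation factors Tufm, Tsfm and Gfm1 passed.

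The 7 rises in the Cre libraries rested on few mice. Without 1 of the 3 Cre P278KY libraries the cytosolic count fell to 1, 2 and 2 (without replicates 1, 2 and 3), and without Cre WT replicate 4 it was 4. Upward calls over all genes also fell in these fits, from 179 to 56, 70 and 75, and to 126 without Cre WT replicate 4. Only Wars kept its call in all 19 alternatives (highest adjusted p = 0.0451).

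In the NoCre libraries, which hold the background RNA that comes down without a tag, no member of either set passed between genotypes by edgeR, DESeq2 or voom. By edgeR 0.0233% of 17133 genes passed, 4 genes that were all lower in P278KY, and by DESeq2 5 were higher and 23 lower. At an unadjusted p under 0.05 there were 1 cytosolic (Qars) and 2 mitochondrial members (Lars2 and Cars2), beside 1160 of all 17133 genes. Of the 7 cholinergic markers 6 were below 0 (median −0.50, and −0.28 within pool 1), 3 did not overlap, and Chat was 1 of the 4 genes that passed (−1.45, adjusted p = 0.034). Their part in the NoCre and interaction values was not tested. Of the cytosolic members 5 of 22 were above 0 (49.4% of all genes were), and 6 of 16 mitochondrial ones. Medians were −0.15 and −0.07, and turned to 0.20 and 0.25 within pool 1. The smallest p belonged to Qars, the glutaminyl enzyme, at 4.18, 8.31 and 9.25 CPM (lowest, median and highest) in P278KY and 9.26 to 17.7 in WT, with no overlap (0.379% of genes were lower and 0.339% higher in this way; log2 fold change −0.73 ± 0.229 SE, adjusted p = 0.667). In the pool 1 libraries Qars stood at −0.15 (adjusted p = 0.959). Wars was at −0.27 ± 0.197 SE and Rars at −0.08 ± 0.168 SE, with overlapping groups. Pool and sex cannot be told apart in this comparison.

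The interaction asks whether the genotype difference is larger with Cre than without, and it shares its 7 Cre libraries with the comparison above. Wars (log2 difference 1.72 ± 0.313 SE, adjusted p = 0.0079) and Rars (1.36 ± 0.264 SE, adjusted p = 0.0119) passed upwards, where 0.654% of 17133 genes passed in either direction and 0.344% upwards and 0.309% downwards. The cytosolic median was 0.90, with 20 of 22 above 0 (48.5% of all genes were), and no mitochondrial member passed (median 0.05). Within pool 1 alone the cytosolic median was 0.21, and 13 of 22 were above 0. Kars (0.02), Dars (0.03) and Farsa (0.06) were near 0 over both pools, with standard errors of 0.31 to 0.37. Within pool 1, Rars kept its call (1.10, adjusted p = 0.0441) and Wars did not (0.99, adjusted p = 0.0733), and with library size alone neither passed (1.08 and 1.36, adjusted p = 0.667 and 0.375).

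Cytosolic synthetase mRNAs were also higher in Cre than in NoCre libraries of the same genotype. In WT mice 20 of 22 rose and none fell, with Qars and Vars not passing, where 59.7% of 17133 genes passed, 28.5% upwards and 31.2% downwards. The median was 1.22 (all genes −0.12), and 22 of 22 were above 0 (47.3% of all genes). Groups did not overlap for 15 of the 22, each higher in Cre (22.5% of genes higher, 20.7% lower). Within pool 1 alone all 22 passed with a median of 1.63, among them Vars at 2.44 (0.84 over both pools), Qars at 0.82 and Cars at 1.68 (0.81 over both pools). Vars also passed with voom (1.22), with library size only (1.29), with the replicate block (1.204) and without NoCre WT 4 and 5 (2.06). It did not pass with DESeq2 (0.70), the pool term (0.85) or a sex term (0.85). With DESeq2, Cars (0.67, adjusted p = 0.0586) and Mars (0.56, adjusted p = 0.0561) did not pass either. Over both pools by edgeR, the largest values belonged to the scaffold Aimp2 (2.70), Hars (2.14), Nars (1.96) and the scaffold Eef1e1 (1.90), and the smallest to Qars (0.26), Mars (0.69), Cars (0.81) and Tars (0.83). Of the mitochondrial set 4 rose (Cars2 1.73, Sars2 1.59, Yars2 1.203 and Rars2 1.03) and 2 fell (Ears2 −1.38 and Wars2 −1.25). Which members rose depended on the pools. Within pool 1 alone, by edgeR, Cars2 (1.04, adjusted p = 0.130) and Rars2 (0.56, adjusted p = 0.266) did not pass. Vars2 (1.48, adjusted p = 0.00414) and Lars2 (2.83, adjusted p = 0.000312) passed there, and Sars2, Yars2, Ears2 and Wars2 kept their calls. Rars2 also did not pass with the replicate block or without NoCre WT 4 and 5. Mars2 (−0.50) and Tars2 (−0.39) came next among the lowest and did not pass, and the mitochondrial median was 0.10.

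**Figure D4:**
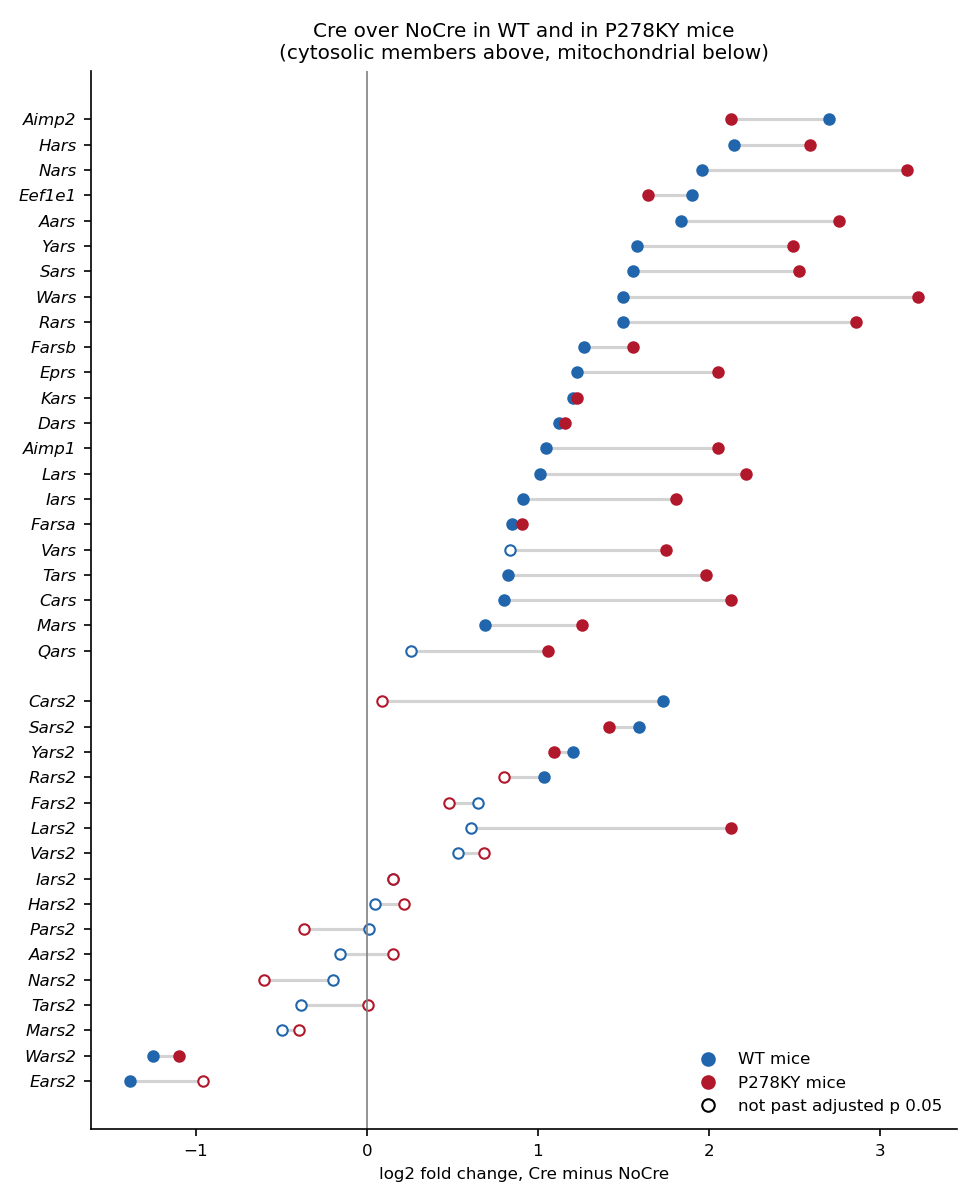
Log2 fold change of Cre over NoCre (horizontal axis) for each member in WT mice (blue) and in P278KY mice (red), cytosolic members above and mitochondrial below, open where the adjusted p was not under 0.05. Cytosolic values in P278KY mice lie right of those in WT mice for all but Aimp2 and Eef1e1 (20 of 22, and 13 of 22 within pool 1 alone, which is not drawn), whereas mitochondrial values lie on either side.

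In P278KY mice all 22 cytosolic members rose over NoCre, where 59.4% of genes passed, 28.2% upwards and 31.2% downwards. All 22 were above 0 (47% of all genes were), with a median of 2.05 (all genes −0.13) and no overlap between groups for any of the 22 (28.3% of all genes higher, 27.9% lower). Wars led with 3.22, from 36.4 CPM (median of NoCre P278KY) to 318 or more, followed by Nars (3.16), Rars (2.86) and Aars (2.76). The smallest values were those of Farsa (0.90), Qars (1.06), Dars (1.16) and Kars (1.23). In the mitochondrial set Sars2 (1.42) and Yars2 (1.09) rose and Wars2 (−1.10) fell. The counts of Lars2 also rose (2.13). In WT mice they were at 0.61 over both pools and did not pass. By edgeR they passed in WT mice within pool 1 alone (2.83, adjusted p = 0.000312) and without NoCre WT 4 and 5 (2.21, adjusted p = 0.00147). What these counts consist of was not tested. Rars2 (0.80) was the fourth highest, and Ears2 (−0.96), Nars2 (−0.60) and Mars2 (−0.40) were the lowest after Wars2, without passing. The mitochondrial median was 0.15.

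With library size without mitochondrial ribosomal RNA as the scale, 10 cytosolic members remained higher in WT mice (all 10 among the 20) and 16 in P278KY mice (all among the 22), and the mitochondrial medians turned to −0.30 and −0.31. That scale moved the median of all genes to −0.54 in WT and −0.59 in P278KY mice, beside cytosolic medians of 0.79 and 1.56. Markers moved in the same comparisons, with all 7 cholinergic markers higher in Cre (median log2 fold change 3.99 in WT and 5.00 in P278KY). Markers of other cells fell: all 8 oligodendrocyte (medians −1.71 in WT and −3.16 in P278KY), all 7 microglial (−3.14 and −3.49), all 5 vascular (−2.80 and −3.58) and 6 of 7 astrocyte markers (−1.74 and −3.13). Of the 6 skeletal muscle markers none passed in WT (−1.63) and all fell in P278KY (−4.91). Their part in the synthetase values was not tested.

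Levels of different genes were compared by the deposited TPM, a measure corrected for transcript length and scaled to a fixed total per library. The highest cytosolic member was Nars in each group, at 634 ± 95.5 TPM for Cre P278KY (SD, n = 3), 327 ± 81.3 for Cre WT (SD, n = 4), 82.0 ± 34.4 for NoCre P278KY (SD, n = 6) and 69.0 ± 22.2 for NoCre WT (SD, n = 5). In Cre P278KY it was followed by Wars (239 ± 50.6), Sars (187 ± 11.4), Rars (130 ± 21.2) and Hars (110 ± 15.0), of which the library ranges of Rars and Hars overlapped. In Cre WT the order after Nars was Sars (106 ± 13.8), Hars (87.5 ± 8.49), Wars (82.8 ± 15.5) and Yars (60.3 ± 15.2). From Sars on, the library range of each of these genes overlapped that of the next. At the low end of the cytosolic set were Vars and Farsa, at 9.28 ± 1.82 and 12.2 ± 1.75 TPM in Cre P278KY. The mitochondrial members other than Lars2 ran there from 1.06 ± 0.292 (Ears2) to 14.9 ± 5.54 TPM (Iars2), and Yars2 stood beside Iars2 at 14.8 ± 4.22.

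For the same amino acid, the cytosolic gene had the higher TPM in every library for 15 of 15 pairs in Cre P278KY and in Cre WT, for 13 in NoCre P278KY and for 12 in NoCre WT (Lars2 left out). The median over pairs of the cytosolic to mitochondrial TPM ratio was 32.4 in Cre P278KY, 18.3 in Cre WT, 7.27 in NoCre P278KY and 7.42 in NoCre WT. The widest ratios in Cre P278KY were those of Nars over Nars2 (median 183) and Wars over Wars2 (173), which were 103 and 88.6 in Cre WT. The narrowest were those of Vars over Vars2 (1.51), Farsa over Fars2 (3.59) and Iars over Iars2 (4.00).

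Lars2, mitochondrial leucyl-tRNA synthetase (ENSMUSG00000035202, chromosome 9, 123366927 to 123462666), stood apart from all other members. It gave 26433, 16244 and 41474 CPM in the Cre P278KY mice against 42759, 54719, 10106 and 16456 in the Cre WT mice, and from 3832 to 54101 in the NoCre libraries. It took 0.476% to 4.53% of a library's counts. Its Cre groups overlapped widely (log2 fold change −0.10 ± 0.541 SE, adjusted p = 0.956). Gm26924 (ENSMUSG00000098178), a predicted gene picked for this comparison after its values were seen, took 4.22% to 30.1% of the counts, and its count was 6.27 to 13.3 times that of Lars2 in each of the 18 libraries. Lars2 is therefore given apart from the other mitochondrial members. What its counts consist of was not tested.

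**Figure D5:**
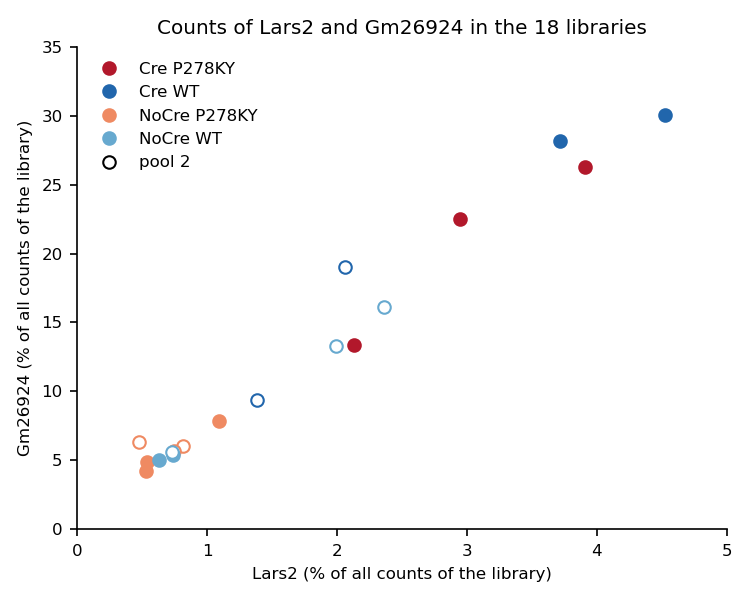
Share of a library's counts taken by Lars2 (horizontal axis, %) and by Gm26924 (vertical axis, %), 1 point per library, coloured by group and open for pool 2. Lars2 runs from 0.476% to 4.53% and Gm26924 from 4.22% to 30.1%, and libraries high in 1 of them are broadly high in the other.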

How the data were processed

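RiboTag pulldowns from the spinal cord of 18 mice were sequenced. Per the file headers, the authors deposited 1 RSEM table per library, which lists for each gene an expected count and a TPM value. The submitters' processing notes name Bowtie2 2.2.0 and RSEM 1.2.12. Genome build, annotation and strand setting of that step: not given in the sources used here. The expected counts as deposited were rounded to whole numbers. TPM as deposited by the authors were used only to compare levels between genes. The replicate numbers used here are names in accession order.

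The counts were tested in edgeR 4.0.16 (R 4.3.3) by the quasi-likelihood test, with filterByExpr, TMM scaling, two-sided p-values and Benjamini-Hochberg adjustment over all genes tested, and a threshold of 0.05. The genotype difference with Cre was fitted on the 7 Cre libraries, and the other comparisons on all 18 with 4 group means. Printed CPM use the TMM factors of the 18 libraries. Standard errors were taken from the fold change and its F statistic, and 95% intervals use the t quantile at edgeR's degrees of freedom. DESeq2 1.42.0 and limma 3.58.1 (voom) were alternatives, as were other scalings, filters, a pool term, pool 1 alone and leaving out each library. The fit was also run on simulated counts with known changes. Those counts held no effect of pool or sex, so that run does not bear on such effects here.

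Each library came from its own named mouse, so p-values measure the spread between mice. The members and lists were chosen with earlier results of these data known. All members were counted; those named with values are the ones past the threshold, those nearest to it, the extremes of each set and the counterparts of members past it. Positions are from GENCODE M21 (GRCm38), where all 38 members were found by identifier, and promoters from RefSeq. Positions and sequences of some members, and values of 1 listed partner gene, are not reported here.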

Additional observations from a re-analysis of the deposited data

Results flagged for a closer look

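In groups of 4 to 6 libraries, 1 value stood far from the rest of its group for 20 of the 114 sets of values checked (chance alone gives about 1 in 20). Of these 20, 11 came from NoCre P278KY 6. In that library Farsb was at 5.23 CPM (24.8 to 34.7 in the other 5), Aars at 25.8 (51.5 to 60.0), Nars at 83.2 (124 to 138), Hars at 15.9 (23.5 to 27.8) and Yars at 19.5 (29.3 to 34.6). Lars and Kars were both at 9.06 (17.8 to 23.9 and 16.5 to 23.1), Tars was at 6.62 (10.4 to 12.5), and Aimp2 and Eef1e1 were both at 0.523 (2.14 to 4.13 and 2.45 to 5.44). Sars2 was at 0 there (1.53 to 3.66).

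NoCre WT 4 gave 5 such values: Cars at 30.9 CPM (10.23 to 12.02 in the other 4), Aars2 at 12.8 (2.43 to 3.81) and Farsa at 10.4 (6.90 to 7.39) were high, and Lars at 15.1 (19.5 to 20.9) and Hars2 at 1.99 (5.67 to 6.55) were low. NoCre WT 5 was high for Hars at 39.4 (22.1 to 26.1) and Mars2 at 8.83 (2.27 to 2.73). Sars2 was low in NoCre WT 2 at 0.709 (2.09 to 2.79), and Yars2 was high in NoCre WT 3 at 9.35 (3.32 to 4.46). These are all control libraries without Cre.

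For 2 members the genotype difference was larger with Cre than without by the interaction test: Wars by 1.72 and Rars by 1.36 on the log2 scale.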

How the results depend on the processing

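Of the 7 cytosolic rises with Cre, Wars passed in all 19 alternatives (adjusted p from 7.07e-08 to 0.0451), and Rars was lost in 2, Lars in 3, Iars in 4, Eprs and Tars in 7 each and Cars in 8. Leaving out each library in turn gave 1 to 7 cytosolic members, the 1 without Cre P278KY replicate 1, 2 without replicate 2 or 3 and 4 without Cre WT replicate 4. No mitochondrial member passed in any of these. With library size only, 5 cytosolic members passed, Eprs, Iars and Tars were lost and Nars was added, and 62.8% of all calls were higher (52.3% otherwise). Over all genes DESeq2 called 426 higher and 546 lower, against 179 and 163. With library size only these were 93 and 55. Without Cre P278KY replicate 1, 2 or 3 the upward calls over all genes were 56, 70 and 75.

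The animal names open with a number that may mark a breeding set, but only 1 number occurs in both Cre groups (Cre P278KY 1 and 3 in pool 1, Cre WT 3 and 4 in pool 2), so within it pool and genotype cannot be told apart. With this number as a replicate block, 15 cytosolic members and 1 mitochondrial member (Lars2) rose with Cre. Over all 14717 genes that block called 789 higher and 875 lower, against 179 and 163 without it. In the interaction 4 cytosolic members passed with the block, which called 64 of all genes higher and 85 lower. Lars2 between NoCre genotypes turned to 0.15 from −1.66.

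Over all genes, upward calls of the interaction numbered 59. They were 3 with library size only, 18 without mitochondrial ribosomal RNA, 150 with DESeq2 and 201 in pool 1 alone. The interaction count of 2 cytosolic members became 0 under the first 2 of these, 5 with DESeq2 and 1 in pool 1 alone. Leaving out 1 library, that count was 1 to 4 (1 without Cre P278KY replicate 1 or 3, 4 without NoCre P278KY replicate 6, with 28, 26 and 99 upward calls over all genes). Without NoCre WT replicates 4 and 5, an alternative chosen after seeing the data as was the median without Lars2, it stayed at 2 and the cytosolic median was 0.65.

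In the WT enrichment the count of mitochondrial members that fell was 0 with library size only. Without mitochondrial ribosomal RNA 10 cytosolic and 0 mitochondrial members rose, and leaving out 1 library gave 2 to 4 mitochondrial rises (2 without Cre WT replicate 2). In the P278KY enrichment the mitochondrial falls numbered 2 with RLE factors or voom, 3 with DESeq2 or without mitochondrial ribosomal RNA, and 0 with library size only. Mitochondrial rises there numbered 1 under each of the 2 library-size scalings and 1 to 4 leaving out 1 library (1 without Cre P278KY replicate 3). Aimp1 between NoCre genotypes turned to 0.0844 from −0.40 with library size only, which moved the median of all genes to 0.35. In the promoters, TGATGAAA in place of TGATGNAA was found in 1 cytosolic member (Aars). The cause of these changes was not tested. Members under about 1 CPM, such as Pars2, rest on few reads, so that a 2-fold difference would be hard to detect.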
